A study of Mus musculus with 15 samples.

Results

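The genes described here encode 10 enzymes of membrane phospholipid synthesis in the mouse heart: Pcyt1a, Chpt1, Cept1 and Pemt of phosphatidylcholine and phosphatidylethanolamine synthesis, Ptdss1 and Ptdss2 of phosphatidylserine synthesis, Lpin1 of diacylglycerol supply, and Pgs1, Crls1 and Taz of the cardiolipin branch. They were chosen by symbol, and all 10 were found among the 54532 genes of the deposited table. Taz is tafazzin there, on chromosome X, and not the Hippo pathway coactivator of the same nickname.

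Poly-A RNA of the left ventricle was sequenced from female C57BL/6JRj mice aged 12 to 18 weeks, 8 days after surgery. GSK mice received GSK-343, an inhibitor of the histone methyltransferase EZH2, at 20 mg/kg by daily intraperitoneal injection, starting 6 h after surgery and ending on day 7; their sample names give the compound alone, and that they carried an infarct is read from how the treatment is described. MI mice had a myocardial infarction made by tying off the left descending coronary artery for good. Sham mice were the surgical controls. Controls were injected with the vehicle, 20% Captisol, and the labels do not say whether this covers both MI and Sham mice. GSK, MI and Sham libraries alike are recorded here with 20% Captisol. Each group held 5 libraries, and Sham replicates 1 and 2 each mixed RNA of 2 animals. No engineered allele is named for any group. The comparisons ask what infarction did to these genes and whether the inhibitor moved them.

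Phosphatidylcholine is built in the Kennedy pathway, where choline is phosphorylated, activated to CDP-choline by Pcyt1a, and joined to diacylglycerol by Chpt1 or Cept1. Phosphatidylserine is made from these lipids by base exchange, and phosphatidylethanolamine is then made from it inside mitochondria. Cardiolipin, the signature lipid of the inner mitochondrial membrane, is built from phosphatidylglycerol by Crls1 and given its mature acyl chains by tafazzin, and it is abundant in heart muscle, where it holds respiratory chain complexes together.

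The libraries held 21534017 to 26843564 fragments assigned to genes. The share of summed FPKM that fell on genes of the mitochondrial genome was 46.4% and 48.7% in GSK replicates 3 and 4 and 40.6% in MI replicate 4. The other GSK libraries had 31.8% to 32.7%, the other MI libraries 23.2% to 27.6%, and all Sham libraries 41.2% to 42.2%. These 3 libraries stand apart from their groups, and the values without them are given where a statement rests on them. As a check of the tissue, the 7 cardiomyocyte markers summed to 10549 to 15636 FPKM in GSK, 8864 to 18062 in MI and 13130 to 17215 in Sham libraries, with no marker at 0.

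Levels are given in FPKM, fragments per kilobase of gene length on a library scale set by the authors, so genes can be compared per length. Differences are on the log2(FPKM + 1) scale from a limma fit of all 15 libraries, with the standard error (SE), and a gene was called when its p, adjusted by Benjamini-Hochberg over the 12585 genes tested, was under 0.05. Of the 10 genes, 9 were tested; Pemt stayed under the filter of 1 FPKM in 5 libraries. Chpt1 had the highest level of the 10 in all 15 libraries and Pemt the lowest. In Sham hearts Lpin1 came next, at 23.1 to 30.8 FPKM, clear of the genes below it. Pcyt1a and Ptdss1 followed with ranges that overlapped each other, then Taz and Crls1, which also overlapped, then Cept1 at 6.87 to 8.46 FPKM. Pgs1 (4.73 to 5.77 FPKM) and Ptdss2 (4.32 to 5.67 FPKM) did not differ beyond their spread.

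**Figure D1:**
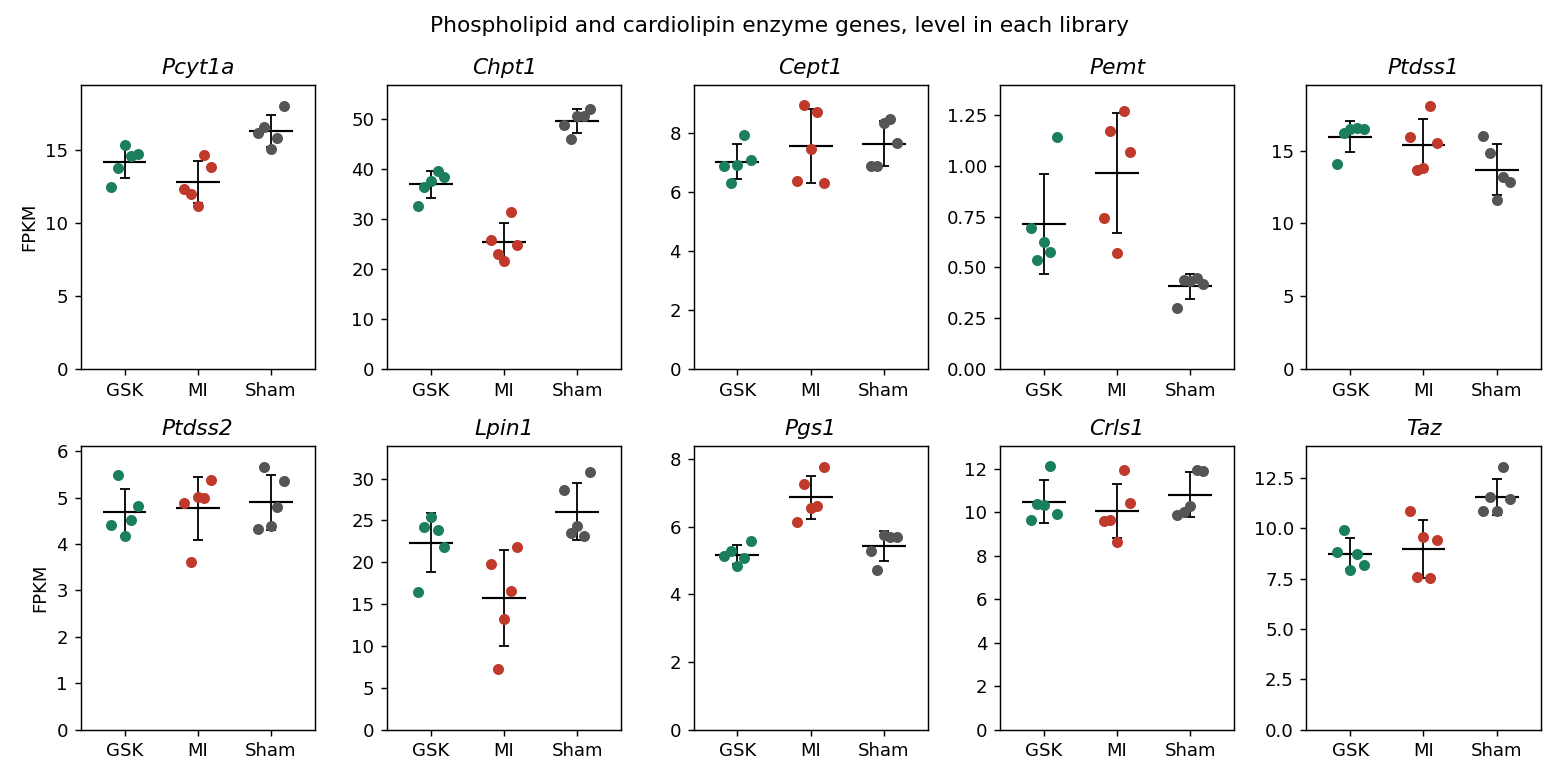
FPKM of the 10 enzyme genes (vertical axes, each from 0) in the 5 libraries of GSK, MI and Sham; points are libraries, the long bar is the mean and the whisker the SD. Chpt1 separates all 3 groups, at 32.6 to 39.6 in GSK, 21.5 to 31.4 in MI and 45.9 to 52.0 in Sham, and Pgs1 is high in MI alone, at 6.16 to 7.77.

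Between MI and Sham, 4 of the 9 tested genes fell (Chpt1, Lpin1, Taz and Pcyt1a), 1 rose (Pgs1), and 4 did not pass (Cept1, Ptdss1, Ptdss2 and Crls1). Over all genes tested, 43.8% were called, with 21.9% higher and 21.9% lower, so the 5 calls are read against a background in which such calls are common. With levels rescaled to equal totals of nuclear genes, 3314 genes were called higher and 1897 lower, against 2757 and 2758 without that step. The median log2 difference was -0.10 over the 9 genes and -0.02 over all genes tested. In 4 of the 9 genes the MI and Sham libraries did not overlap, against 29.8% of all genes tested. Between GSK and MI no gene of the 9 was called, and limma called 0 of the 12585 genes, so the background is 0%; voom on the recovered fragments called 2 genes higher and 0 lower. At an unadjusted p under 0.05 stood 3 of the 9 genes (Chpt1, Pgs1 and Lpin1), against 21% of all genes tested, or 2638. The groups did not overlap in 2 of the 9 (Chpt1 and Pgs1), against 2.01% of all genes tested. Between GSK and Sham 2 of the 9 fell (Chpt1 and Taz), against a background of 18.3% (10.8% higher and 7.58% lower), and the groups did not overlap in the same pair, against 18.4% of all genes tested. The rescaling turned 1354 higher and 954 lower calls over all genes into 1960 and 425, with a median log2 difference of 0.09 in place of -0.02. MI and GSK are each set against Sham, and GSK is set against MI, so these comparisons share libraries and their values are given side by side without an overlap or correlation between them.

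**Figure D2:**
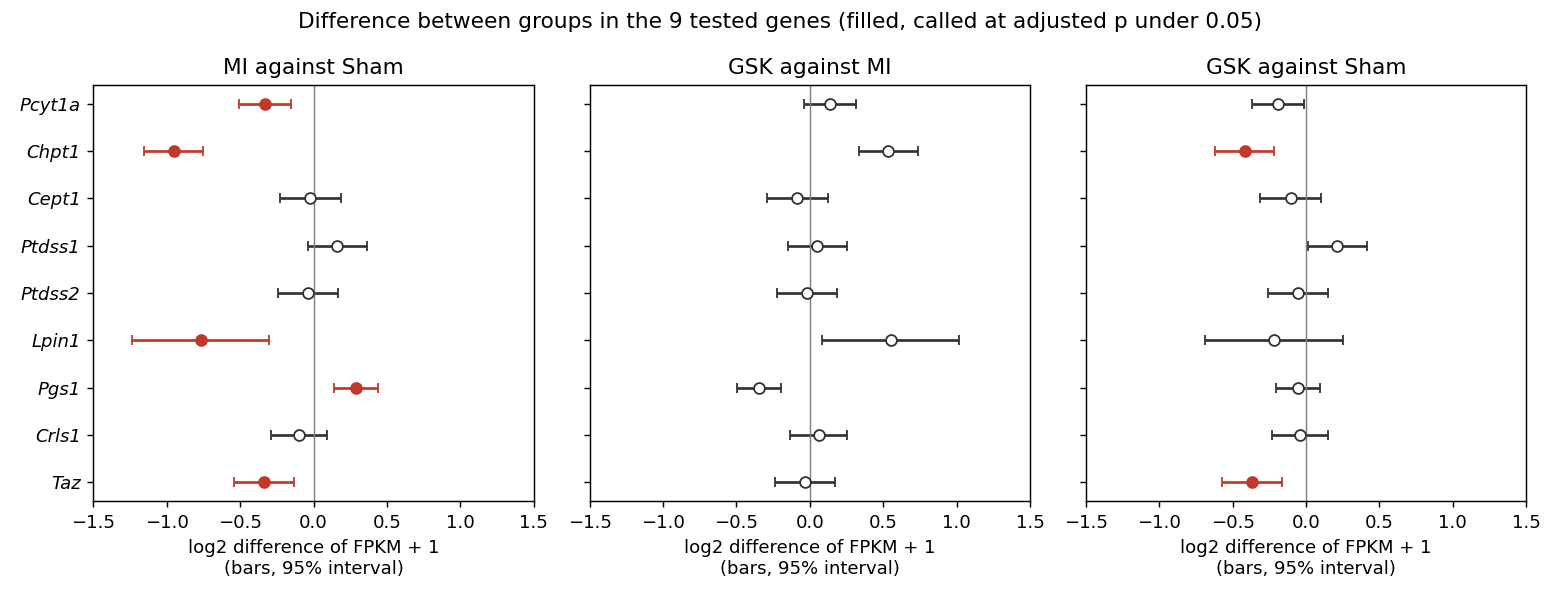
Log2 difference (horizontal axis, log2 of FPKM + 1) of the 9 tested genes in the 3 comparisons, with 95% intervals as bars and filled points for genes called by limma at an adjusted p under 0.05. Chpt1 and Lpin1 lie lowest in MI against Sham, at -0.95 and -0.77, and no gene is filled in GSK against MI.

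In the choline branch, infarction lowered the transferase gene Chpt1 and the cytidylyl transferase gene Pcyt1a, while Cept1 did not pass the test. Chpt1 (ENSMUSG00000060002, chromosome 10, 88452745 to 88504073 on the minus strand of mm10) encodes choline phosphotransferase 1, which makes phosphatidylcholine from CDP-choline and diacylglycerol. Pcyt1a (ENSMUSG00000005615, chromosome 16, 32430921 to 32475070 on the plus strand) encodes the alpha form of the enzyme that makes CDP-choline and sets the pace of the pathway. Of the 4 genes called lower in MI, Taz is left out here. The sequences just upstream of the starts of the other 3 (Chpt1, Pcyt1a and Lpin1) are shown. They run 5′ to 3′ on the gene's strand, from RefSeq on GRCm38.p6 (the build of mm10), with capitals marking whole matches, on either strand, to any of 4 short motifs: AAGGTCA (a nuclear receptor element), CACGTG (the E-box), CCAAT and GGGCGG (the GC box).
Chpt1, chr10:88504074-88504220, minus strand: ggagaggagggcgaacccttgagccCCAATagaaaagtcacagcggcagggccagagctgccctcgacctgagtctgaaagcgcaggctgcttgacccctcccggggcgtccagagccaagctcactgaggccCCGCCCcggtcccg
Pcyt1a, chr16:32430671-32430920, plus strand: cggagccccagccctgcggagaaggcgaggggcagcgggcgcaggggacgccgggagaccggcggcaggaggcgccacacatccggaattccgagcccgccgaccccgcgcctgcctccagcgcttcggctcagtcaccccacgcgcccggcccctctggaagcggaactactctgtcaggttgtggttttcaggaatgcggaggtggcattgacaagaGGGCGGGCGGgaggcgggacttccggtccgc
Lpin1, chr12:16610967-16611216, minus strand: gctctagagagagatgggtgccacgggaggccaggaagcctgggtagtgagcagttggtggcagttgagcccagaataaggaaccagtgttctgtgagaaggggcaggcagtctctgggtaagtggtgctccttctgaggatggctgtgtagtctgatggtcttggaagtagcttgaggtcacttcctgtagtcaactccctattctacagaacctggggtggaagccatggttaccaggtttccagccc

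The printed Chpt1 stretch held 1 CCAAT and 1 GC box, that of Pcyt1a held 2 overlapping GC boxes, and that of Lpin1 none of the 4 motifs. The Chpt1 stretch is 147 bases long, because 103 bases of its window lie inside the gene model and were left out. Its whole window held 5 GC boxes. RefSeq windows of 250 bases before a start were at hand for 9 of the 10 genes, 15 windows in all, since some genes have several starts. Several other windows also lie partly or wholly inside the gene model, those of Taz, Pgs1, Ptdss2 and Pemt among them. All windows were counted whole. A GC box lay in 7 of the 15 windows (of Chpt1, Cept1, Pcyt1a, Taz and Pgs1), against 32.7% of 32851 promoter windows. Some windows of Cept1 and of Pcyt1a overlap, so the same box is counted in more than 1 of them. With only the first start of each gene, a GC box lay in 5 of 9 windows. CCAAT lay in 2 of the 15 (of Chpt1 and Pemt), against 33.8%, the E-box in 1 (of Crls1), against 6.02%, and AAGGTCA in 0, against 4.08%.

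Chpt1 stood at 32.6, 36.3, 37.5, 39.6 and 38.4 FPKM in GSK replicates 1 to 5, at 25.7, 23.0, 21.5, 31.4 and 24.7 in MI, and at 48.8, 45.9, 50.5, 50.6 and 52.0 in Sham. The 3 groups did not overlap in any pairing, with GSK between MI and Sham. As means this was 36.9 ± 2.69 FPKM in GSK, 25.3 ± 3.80 in MI and 49.6 ± 2.33 in Sham (SD, n = 5), so that MI hearts held 51.0% of the Sham level and GSK hearts 74.4%. Chpt1 fell in MI against Sham by 0.95 on the log2 scale (SE 0.10, adjusted p = 1.74e-05 by limma), the gene with the 31st smallest p of 12585. It also fell in GSK against Sham, by 0.42 (SE 0.10, adjusted p = 0.00958), a call lost with the nuclear rescaling (adjusted p = 0.0704, range over 26 alternatives 0.00311 to 0.0704). In GSK against MI the log2 difference was 0.54 (SE 0.10, 95% interval 0.33 to 0.74), which did not pass over all genes (adjusted p = 0.0751) although only 6 genes had a smaller p. Leaving out 1 library moved this adjusted p under the threshold in 3 cases, to 0.0233 without MI replicate 1, 0.0316 without MI replicate 4 and 0.0392 without GSK replicate 5. Without the 3 libraries that stand apart the difference was 0.57, with an adjusted p of 0.271, and over 26 alternatives it ranged from 0.0233 to 0.287. The highest MI library for Chpt1 was replicate 4, whose mitochondrial share was also the highest of its group; without that library the difference was 0.61. Of the 8324 exonic bases of Chpt1, 660 are shared with Sycp3 on the other strand, and a stretch of up to 303 bases is at least 95% identical to transcripts of 68 other genes, so part of its value is uncertain.

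Cept1 (ENSMUSG00000040774, chromosome 3, 106502260 to 106547802, minus strand) encodes the transferase that accepts both CDP-choline and CDP-ethanolamine. It stood at 6.90, 6.30, 6.93, 7.93 and 7.07 FPKM in GSK, at 6.36, 8.95, 7.45, 8.73 and 6.31 in MI, and at 6.87, 6.88, 8.35, 8.46 and 7.65 in Sham. The groups overlapped throughout, and the MI libraries spread the widest. The log2 difference was -0.02 in MI against Sham (95% interval -0.23 to 0.19, adjusted p = 0.876) and -0.08 in GSK against MI (-0.29 to 0.13, adjusted p = 0.644), and in MI against Sham it turned to 0.07 with the nuclear rescaling. Its exons share 771 of 3116 bases with Dennd2d on the other strand.

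The ratio of Chpt1 to Cept1 within a library does not depend on the library scale, and it was looked at after the levels had been seen, so it carries no test. It was 4.72, 5.76, 5.41, 4.99 and 5.43 in GSK, 4.04, 2.57, 2.88, 3.60 and 3.92 in MI, and 7.10, 6.68, 6.05, 5.98 and 6.80 in Sham. Each group kept apart from the others, in the order MI, GSK, Sham. The mean ratio was 5.26 ± 0.41 in GSK, 3.40 ± 0.65 in MI and 6.52 ± 0.49 in Sham (SD, n = 5).

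**Figure D3:**
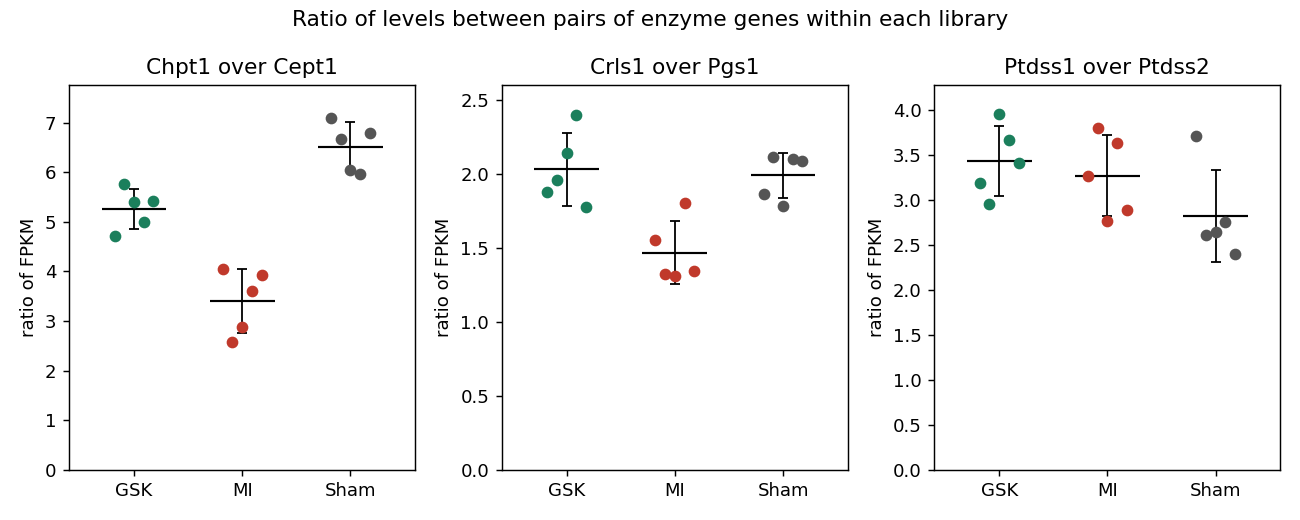
Ratio of FPKM between pairs of enzyme genes (vertical axes, each from 0) in the 5 libraries of GSK, MI and Sham; points are libraries, the long bar is the mean and the whisker the SD. The Chpt1 to Cept1 ratio lies at 4.72 to 5.76 in GSK, 2.57 to 4.04 in MI and 5.98 to 7.10 in Sham, while the groups overlap in the Ptdss1 to Ptdss2 ratio.

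Pcyt1a stood at 12.5, 13.8, 15.4, 14.6 and 14.8 FPKM in GSK, at 12.4, 12.0, 11.2, 14.7 and 13.9 in MI, and at 16.2, 16.6, 15.1, 15.9 and 18.1 in Sham. All MI libraries lay under all Sham libraries, and GSK overlapped both. Pcyt1a fell in MI against Sham by 0.33 (SE 0.08, adjusted p = 0.00501 by limma). It did not pass in GSK against MI (0.14, 95% interval -0.04 to 0.32, adjusted p = 0.342) or in GSK against Sham (-0.19, adjusted p = 0.115). Its exons share 567 of 7412 bases with Slc51a on the other strand.

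Pemt (ENSMUSG00000000301, chromosome 11, 59970614 to 60046489, minus strand) encodes the methyltransferase that turns phosphatidylethanolamine into phosphatidylcholine, a route used chiefly in liver. It was close to the detection limit here, with 14 to 69 fragments per library. Its level was 0.694, 0.538, 0.626, 0.575 and 1.14 FPKM in GSK, 0.743, 1.17, 0.572, 1.27 and 1.07 in MI, and 0.300, 0.439, 0.434, 0.448 and 0.419 in Sham. All GSK and all MI libraries lay above all Sham libraries, while GSK and MI overlapped. In a limma fit with a filter of 0.1 FPKM in 5 libraries, which tests 19222 genes and calls 33.7% of them in MI against Sham, Pemt rose in MI by 0.47 (SE 0.11, adjusted p = 0.00365); the scale of FPKM + 1 understates changes at this level. It did not pass in GSK against Sham (0.28, adjusted p = 0.105) or in GSK against MI (-0.19, adjusted p = 0.359). The 4 hepatocyte markers listed summed to at most 0.315 FPKM in any GSK, 0.255 in any MI and 0.381 in any Sham library, and Serpina1a was at 0 in every library and Alb and Apoa1 in every MI library.

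The phosphatidylserine synthases did not pass in any comparison. Ptdss1 (ENSMUSG00000021518, chromosome 13, 66932830 to 66998401, plus strand), which exchanges the choline of phosphatidylcholine for serine, stood at 14.1, 16.2, 16.5, 16.6 and 16.5 FPKM in GSK, at 15.9, 13.7, 13.8, 18.1 and 15.5 in MI, and at 16.0, 14.8, 11.6, 13.2 and 12.8 in Sham. The groups overlapped, and Sham replicate 1 was the highest Sham library. Ptdss1 shares 229 of 4294 exonic bases with Mterf3 and 87 with 4933433G19Rik, both on the other strand. The log2 difference was 0.16 in MI against Sham (95% interval -0.04 to 0.36, adjusted p = 0.182), 0.05 in GSK against MI (adjusted p = 0.776) and 0.21 in GSK against Sham (0.01 to 0.42, adjusted p = 0.125). The last passed with the nuclear rescaling (0.34, adjusted p = 0.0285, range over 26 alternatives 0.0285 to 0.269). Ptdss2 (ENSMUSG00000025495, chromosome 7, 141122382 to 141157606, plus strand), which uses phosphatidylethanolamine instead, averaged 4.68 ± 0.51 FPKM in GSK, 4.77 ± 0.68 in MI and 4.90 ± 0.59 in Sham (SD, n = 5). Its log2 differences lay between -0.05 and -0.02 in the 3 comparisons, with 95% intervals that reached -0.26 at the lowest and 0.19 at the highest, and each turned positive with the nuclear rescaling. Ptdss1 exceeded Ptdss2 per length in every library, by a ratio of 2.96 to 3.96 in GSK, 2.77 to 3.80 in MI and 2.40 to 3.71 in Sham.

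Lpin1 (ENSMUSG00000020593, chromosome 12, 16535669 to 16610966, minus strand) encodes lipin 1, the phosphatidate phosphatase that supplies diacylglycerol for phospholipids and triglycerides and that also acts as a coactivator of fatty acid oxidation genes. It stood at 16.4, 24.2, 25.4, 23.8 and 21.8 FPKM in GSK, at 19.8, 7.21, 13.3, 16.6 and 21.8 in MI, and at 28.6, 23.5, 24.4, 23.1 and 30.8 in Sham. All MI libraries lay under all Sham libraries, and MI replicate 2 was the lowest by far. Lpin1 fell in MI against Sham by 0.77 (SE 0.22, adjusted p = 0.0109 by limma), and by 0.53 without MI replicate 2 (adjusted p = 0.0126, range over 26 alternatives 0.00410 to 0.0420). In GSK against MI the difference was 0.55 (95% interval 0.08 to 1.02, adjusted p = 0.179), and 0.31 without MI replicate 2. In GSK against Sham it was -0.22 (-0.69 to 0.25, adjusted p = 0.506).

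In the cardiolipin branch the entry gene Pgs1 rose in MI and the remodelling gene Taz fell, while the synthase gene Crls1 did not pass. Pgs1 (ENSMUSG00000017715, chromosome 11, 117986292 to 118024011, plus strand) encodes phosphatidylglycerophosphate synthase, the committed step. It stood at 5.14, 5.29, 4.83, 5.06 and 5.57 FPKM in GSK, at 6.16, 7.27, 6.57, 6.61 and 7.77 in MI, and at 5.30, 4.73, 5.77, 5.68 and 5.71 in Sham. Every MI library lay above every GSK and every Sham library, and GSK and Sham overlapped. Pgs1 rose in MI against Sham by 0.29 (SE 0.07, adjusted p = 0.00408 by limma). In GSK against MI the log2 difference was -0.35 (SE 0.07, 95% interval -0.50 to -0.20), which did not pass over all genes (adjusted p = 0.0751), at the 26th smallest p of 12585. The adjusted p came under the threshold without MI replicate 1 (0.0227) and without GSK replicate 5 (0.0400). It was 0.347 without the 3 libraries that stand apart, at a difference of -0.32, the top of its range over 26 alternatives. Against Sham the GSK difference was -0.06 (-0.21 to 0.09, adjusted p = 0.596). Pgs1 shares 93 of 5333 exonic bases with Dnah17 on the other strand.

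Crls1 (ENSMUSG00000027357, chromosome 2, 132846666 to 132866785, plus strand) encodes cardiolipin synthase, which joins phosphatidylglycerol to CDP-diacylglycerol. It averaged 10.5 ± 0.98 FPKM in GSK, 10.04 ± 1.24 in MI and 10.8 ± 1.03 in Sham (SD, n = 5), with overlapping libraries. The log2 difference was -0.10 in MI against Sham (95% interval -0.29 to 0.09, adjusted p = 0.383), 0.06 in GSK against MI (-0.13 to 0.25, adjusted p = 0.724) and -0.04 in GSK against Sham (-0.23 to 0.15, adjusted p = 0.782). The ratio of Crls1 to Pgs1 was 1.78 to 2.40 in GSK, 1.31 to 1.81 in MI and 1.79 to 2.12 in Sham. MI was lowest on average and overlapped each of the others by a single library, MI replicate 4.

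Taz (ENSMUSG00000009995, chromosome X, 74281912 to 74290151, plus strand) encodes tafazzin, the transacylase that remodels the acyl chains of cardiolipin and whose loss causes Barth syndrome in humans. It stood at 8.82, 9.94, 7.95, 8.75 and 8.21 FPKM in GSK, at 10.9, 7.58, 9.58, 7.51 and 9.45 in MI, and at 10.9, 11.6, 10.9, 13.0 and 11.4 in Sham. All GSK libraries lay under all Sham libraries, and MI replicate 1 alone reached the Sham range. Taz fell in MI against Sham by 0.34 (SE 0.10, adjusted p = 0.0107 by limma) and in GSK against Sham by 0.37 (SE 0.10, adjusted p = 0.0179). The GSK against Sham call was lost without the mixed Sham libraries (adjusted p = 0.0535), without Sham replicate 4 (0.0535) or GSK replicate 5 (0.0509), and with the nuclear rescaling (0.0653), within a range of 0.00573 to 0.0653 over 26 alternatives. That call was also lost in a fit with the replicate numbers as a block, although these do not pair the samples. In GSK against MI the difference was -0.03 (95% interval -0.23 to 0.17, adjusted p = 0.878). By level, GSK lay between MI and Sham for Chpt1, near Sham for Pgs1 and near MI for Taz, and overlapped both for Lpin1. None of these genes passed in GSK against MI, and whether the genes differ from each other was not tested.

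In 4 lists of other genes of phospholipid metabolism, 19 of 39 tested genes (48.7%) were called in MI against Sham, near the 43.8% of all genes tested (21.9% in each direction), so the counts are not a result about these lists. In the choline and ethanolamine branch 7 of 10 listed genes were tested, of which 1 rose and 2 fell (median log2 difference -0.12, against -0.02 over all genes tested). The choline transporter-like gene Slc44a2 rose by 0.36, to 13.5 ± 1.61 FPKM in MI against 10.2 ± 0.22 in Sham (adjusted p = 0.00168). The ethanolamine cytidylyl transferase gene Pcyt2 fell by 0.34 (adjusted p = 0.0473), a call lost in 18 of 26 alternatives, and the ethanolamine kinase gene Etnk1 by 0.34 (adjusted p = 0.00516), lost with the nuclear rescaling (0.104). In the supply of phosphatidic acid and diacylglycerol 3 of 10 tested genes rose and 3 fell (median -0.19). The acyltransferase genes Gpam, Agpat3 and Gpat3 fell by 0.73, 0.62 and 0.50, while Agpat4 rose by 0.58. The lipin genes Lpin3 and Lpin2 rose by 0.47 and 0.35, the opposite direction to Lpin1; Lpin2 averaged 1.57 ± 0.26 FPKM in MI against 1.01 ± 0.08 in Sham, far below Lpin1. In all 6 the adjusted p lay between 0.00109 (Agpat3) and 0.0160 (Gpat3), and the Gpat3 call was lost without the mixed Sham libraries (0.126).

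Among genes of CDP-diacylglycerol, inositol lipid and mitochondrial steps, 3 of 10 tested rose and 2 fell in MI (median 0.05). Over all genes tested, 21.9% were called in each direction. Prelid1, which carries phosphatidic acid between the mitochondrial membranes, rose by 1.22 (SE 0.13, adjusted p = 2.04e-05). It stood at 24.9, 19.7, 16.3, 17.2 and 25.0 FPKM in GSK, at 24.5, 35.0, 27.6, 30.002 and 29.8 in MI, and at 11.8, 11.7, 13.0, 13.2 and 10.5 in Sham. All GSK and MI libraries lay above Sham, and GSK lay below MI but for an overlap with MI replicate 1. The phosphatidylinositol synthase gene Cdipt rose by 0.53 and Pisd, the phosphatidylserine decarboxylase of mitochondria, by 0.36, while the phosphatidylcholine carrier gene Stard7 fell by 0.61 and the CDP-diacylglycerol synthase gene Cds2 by 0.52. Among genes of acyl remodelling and breakdown, 4 of 12 tested rose and 1 fell (median 0.11), against the same 21.9% in each direction. The cytosolic phospholipase gene Pla2g4a rose by 0.76, the acyltransferase genes Lpcat2 and Lpcat4 by 0.66 and 0.46, and the phospholipase D gene Pld2 (named after its value was seen) by 0.41, while Pnpla8, a calcium-independent phospholipase of mitochondria, fell by 0.80 to 6.48 ± 1.15 FPKM in MI against 11.9 ± 0.92 in Sham (SD, n = 5; adjusted p = 0.000147).

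**Figure D4:**
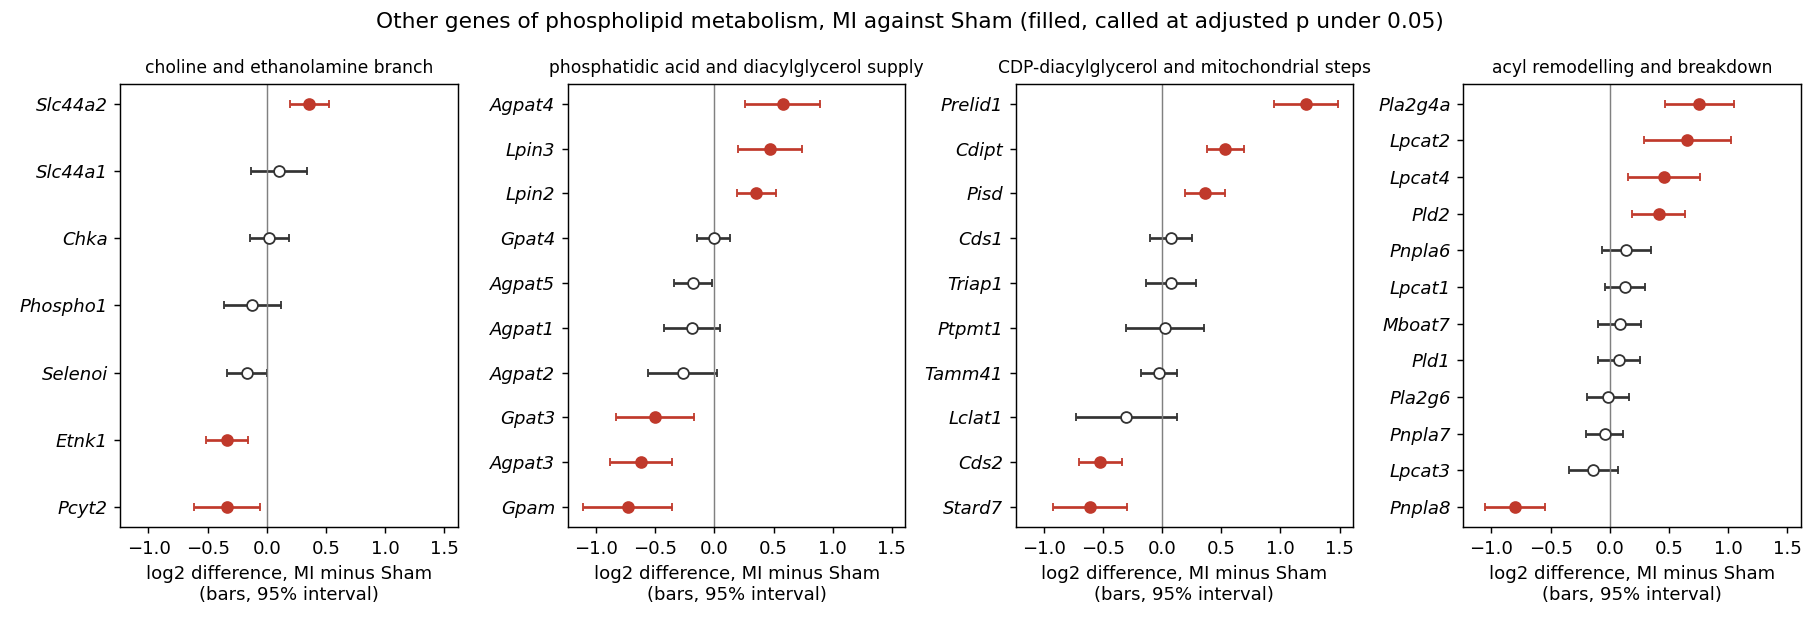
Log2 difference, MI minus Sham (horizontal axes, log2 of FPKM + 1), of the tested genes of 4 lists of phospholipid metabolism, with 95% intervals as bars and filled points for genes called by limma at an adjusted p under 0.05. Prelid1 lies highest at 1.22 and Pnpla8 lowest at -0.80, and each list holds filled points on both sides of 0.

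In GSK against MI none of these genes was called by limma, and an unadjusted p under 0.05 was seen in 1 of 7, 1 of 10, 4 of 10 and 1 of 12 tested genes of the lists in the order above, together 17.9%, against 21% of all genes tested. The smallest adjusted p in each list were 0.153 for Etnk1 (log2 difference 0.24), 0.160 for Gpam (0.47), 0.0970 for Prelid1 (-0.50) and 0.120 for Pnpla8 (0.39). Next in each list came Slc44a2 (-0.11, adjusted p = 0.407), Lpin3 (-0.25, 0.266), Pisd (-0.24, 0.135) and Pld2 (-0.21, 0.253). Set against Sham, 7 of the 39 genes (17.9%) were called in GSK, near the 18.3% of all genes tested. Slc44a2 (0.25), Prelid1 (0.71), Cdipt (0.34) and Pla2g4a (0.51) rose, and Agpat3 (-0.58), Cds2 (-0.30) and Pnpla8 (-0.41) fell, with adjusted p from 0.00223 (Prelid1) to 0.0363 (Slc44a2). The calls of Prelid1, Cdipt and Agpat3 held in all 26 alternatives. That of Slc44a2 was lost in 13 (highest adjusted p 0.103), of Pnpla8 in 8 (0.156), of Cds2 in 7 (0.167) and of Pla2g4a in 6 (0.0834). Those of Slc44a2, Pnpla8 and Pla2g4a were among those lost without the mixed Sham libraries and without GSK replicate 5 or Sham replicate 5, and those of Slc44a2, Pnpla8 and Cds2 among those lost without GSK replicate 1 or Sham replicates 3 or 4.

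The libraries hold whole ventricle, so fewer cells of a type and less RNA per cell cannot be told apart. Of 7 cardiomyocyte markers 5 fell in MI against Sham, and of 6 fibroblast and 6 macrophage markers 4 and 6 rose, against 21.9% of all genes tested in each direction. Fibroblast markers summed to 355 to 1334 FPKM in GSK, 578 to 1404 in MI and 188 to 261 in Sham, and macrophage markers to 391 to 906, 565 to 973 and 265 to 333. Adipocyte markers summed to 7.71 to 59.0 FPKM in GSK, 3.05 to 40.6 in MI and 4.603 to 67.9 in Sham; of 4 tested, Plin1 alone was called lower in MI against Sham, with a median of -0.87 over the 4. Neutrophil markers summed to 1.92 to 9.30 FPKM in GSK, 4.15 to 16.1 in MI and 3.21 to 5.32 in Sham, and Csf3r alone of 3 was called higher in MI against Sham. No marker of these 5 lists was called in GSK against MI. At an unadjusted p under 0.05, all 3 neutrophil markers and 2 of 6 macrophage markers were lower, and 2 of 7 cardiomyocyte markers higher. Of the 12585 genes tested, 1274 were lower and 1364 higher at that threshold, which is 21% with both directions counted. No marker of these 5 lists was at 0 in a whole group. Endothelial, mural and erythroid markers were scored too. In MI against Sham, 2 of 5 endothelial and 1 of 4 erythroid markers were called higher. Of 4 mural markers 1 was called higher and 1 lower, against the same 21.9% in each direction. None of them was called in GSK against MI, where 1 erythroid marker was lower at an unadjusted p under 0.05. The part of these cell types in the values of the enzyme genes was not tested.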

How the data were processed

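The authors deposited FPKM values for 54532 genes, 1 column for each of the 15 libraries, with gene length and mm10 coordinates. The tools named, per the submitters' processing notes and without roles, are DESeq2, R, Subread with featureCounts, and HISAT2, on mm10; strand setting, annotation release and filters were not given in the sources. Every value times the gene length was a whole multiple (within 0.01) of a library step, so fragments could be recovered; these totals give the depth, and 1 fragment on 1 kb equals 0.0357 to 0.0478 FPKM.

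Groups and replicate numbers came from the sample titles. Values were transformed as log2(FPKM + 1), and the 12585 genes that reached 1 FPKM in 5 libraries or more were fitted as group means with limma 3.58.1 in R 4.3.3, with a mean trend and Benjamini-Hochberg adjustment over all tested genes. The step was tested on simulated data with the same dispersion for all genes and few genes changed. These libraries differ from that setting, so the test does not show how well the fit holds for them. The protocols speak of separate mice, apart from the mixed libraries. Overlaps with other genes used GENCODE vM21, whose coordinates match for all 10 genes. All 10 genes are named; of each pathway list up to 3 called rises and falls are named, or the 2 of lowest p. Genes and lists were chosen with earlier results of these data known. Alternatives varied the pseudocount, filter, scaling, model and libraries; a count test with edgeR was not run, because the deposited unit is FPKM.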

Additional observations from a re-analysis of the deposited data

Results flagged for a closer look

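In groups of 5 libraries, the gap of the most extreme library to its neighbour was set against the group's range for the 10 genes and 3 ratios, 39 groups in all, and 5 were marked; chance marks about 1 in 20. Pemt was high in GSK replicate 5, at 1.14 FPKM, and low in Sham replicate 1, at 0.300 FPKM. Ptdss1 was low in GSK replicate 1, at 14.1 FPKM. Ptdss2 was low in MI replicate 2, at 3.60 FPKM, the library that was also the lowest for Lpin1. The Ptdss1 to Ptdss2 ratio was high in Sham replicate 1, at 3.71.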

How the results depend on the processing

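Of 705 alternative values for the enzyme genes, 674 kept direction and side of the threshold, 6 lost a call, 6 gained one (each given with its gene, here or above) and 19 changed sign, of which 0 were called. The 153 values of the ratios moved by less than 1 SD. Leaving out a single library of 5 cannot move a group mean by that much. For single leave-outs this outcome was therefore fixed in advance and does not measure stability. All 5 MI against Sham calls held in all 26 alternatives, but only that of Chpt1 stayed far from the threshold. The highest adjusted p by limma was 0.000273 for Chpt1, 0.0368 for Taz, 0.0420 for Lpin1, 0.0425 for Pgs1 and 0.0432 for Pcyt1a. Ratio alternatives and their leave-outs were chosen after seeing the data. The edgeR test on recovered fragments was not run.

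With the nuclear rescaling, log2 differences turned to 0.0671 (Cept1) and 0.0442 (Ptdss2) in MI against Sham, to 0.0131 (Ptdss2) and 0.00158 (Taz) in GSK against MI, and to 0.0141 (Cept1), 0.0573 (Ptdss2), 0.0835 (Crls1) and 0.0559 (Pgs1) in GSK against Sham. In GSK against Sham it also gave 1 enzyme gene higher and 0 lower, 425 genes lower over all, 2 calls in diacylglycerol supply and 1 in acyl remodelling; in MI against Sham it left 1 call in the choline branch. Without the libraries that stand apart, Ptdss2 turned to 0.0547 in GSK against MI and 0.00276 in GSK against Sham, where the choline branch had 0 calls and diacylglycerol supply 3. With no filter or one at 0.1 FPKM, 2 enzyme genes were higher in MI against Sham, Pemt being added.

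In GSK against MI, 3 genes were called higher with a pseudocount of 0.1 and 2 with voom. For GSK against Sham, no filter gave 592 genes lower and 0 calls in the choline and remodelling lists. Diacylglycerol supply had 2 calls with a pseudocount of 0.1, no trend, voom or only the groups compared in the fit, which also gave 2 in the choline branch and 1634 genes lower. Without the mixed Sham libraries 779 genes were higher and 463 lower, with 1 enzyme gene lower and 0 calls in the choline and remodelling lists. The replicate numbers do not pair the samples (correlations of deviations -0.411 to 0.486, own number best in at most 1 of 5); with them as a replicate block, GSK against Sham lost the Taz call (adjusted p = 0.0518) and gave 535 genes lower, 1 enzyme gene lower, 0 calls in the choline branch and 1 in remodelling.

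With single libraries left out, log2 differences ranged from -0.0790 to 0.0323 (Cept1) and -0.0747 to 0.0426 (Ptdss2) in MI against Sham, and from -0.0961 to 0.0212 (Ptdss2) and -0.0856 to 0.0346 (Taz) in GSK against MI. There 0 to 204 genes were called higher and 0 to 188 lower, with 204 and 188 without MI replicate 1, 154 and 134 without GSK replicate 5, 19 and 7 without MI replicate 4 and 6 and 1 without GSK replicate 1, with 0 to 1 enzyme genes in each direction and 0 to 1 in the mitochondrial list. In GSK against Sham 773 to 1562 genes were higher and 412 to 1326 lower (773 and 412 without GSK replicate 5, 880 and 482 without GSK replicate 1, 850 and 460 without Sham replicate 4, and 610 and 456 lower without Sham replicates 3 and 5, each alone), with 1 to 2 enzyme genes lower and 0 to 2, 1 to 2 and 0 to 2 calls in the choline, diacylglycerol and remodelling lists. The causes were not tested. Depth limits Pemt most.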
